A study of Mus musculus with 9 samples.

Results

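The COPII coat is the protein shell that buds transport vesicles from the endoplasmic reticulum (ER). It is described here through the 10 genes of the table, out of 21899, whose names are on a list of its subunits: the small GTPases Sar1a and Sar1b, the inner coat subunits Sec23a, Sec23b, Sec24a, Sec24b, Sec24c and Sec24d, and the outer coat subunits Sec13 and Sec31a. The list holds no Sec31 gene besides Sec31a. They are all genes with these names, and the rule uses no measured value, although it was written with earlier results of these data known. RNA-seq was made from N2a (Neuro-2a, mouse neuroblastoma) cells carrying a lentiviral pLKO.1 puromycin hairpin against luciferase (shlucif, the control, whose cells hold a hairpin and the selection marker too) or against Arf1 (shArf1-1 or shArf1-2), with 3 libraries per group and no other treatment. The 6 libraries with a hairpin against Arf1 are called Arf1-deficient. The labels do not give a time after transduction, do not say whether the cells were a pool or a clone, and do not say that the replicates were separate cultures, so that the p-values measure the spread between these libraries, which may be technical. All 10 genes passed the filter on low counts, as did 12448 genes in all.

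COPII assembles in a fixed order on ER membranes. Sar1 takes up GTP, inserts in the membrane and recruits the Sec23-Sec24 dimer, in which Sec23 speeds GTP hydrolysis by Sar1 and Sec24 holds the cargo. Sec13 and Sec31 then form the cage around that inner layer. Arf1, the gene the hairpins target, is a related small GTPase that recruits the COPI coat for transport in the opposite direction, from the Golgi back to the ER.

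The hairpin targets are shown because the results below differ between the hairpins. They lie in the coding sequence of Arf1, which is on the minus strand of GRCm38. The shArf1-1 target is at chr11:59213222-59213242 and the shArf1-2 target at chr11:59213386-59213406. Each is given 5′ to 3′ in the sense of the mRNA, with capitals for the 7 bases that pair with the guide's seed.
shArf1-1 target: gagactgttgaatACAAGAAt
shArf1-2 target: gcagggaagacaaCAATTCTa
The longest run of bases that the shArf1-1 target shared with a transcript of a COPII gene was 12, and that of shArf1-2 was 10. None of the 10 genes held either 7-base seed match in its longest annotated 3′ UTR, where 15.7% of 12362 tested genes with a 3′ UTR held ACAAGAA and 9.18% held CAATTCT.

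The promoters of Sar1a, Sec13 and Sec31a, the genes with higher RNA with both hairpins, are shown first. They are from RefSeq on GRCm38.p6 and run from 180 bases before the start site through 20 bases from it, in the direction of the gene. Capitals mark the ETS motif CCGGAAG and, in Sar1a, the E-box CACGTG, found on either strand.
Sar1a, chr10:61680105-61680304, plus strand: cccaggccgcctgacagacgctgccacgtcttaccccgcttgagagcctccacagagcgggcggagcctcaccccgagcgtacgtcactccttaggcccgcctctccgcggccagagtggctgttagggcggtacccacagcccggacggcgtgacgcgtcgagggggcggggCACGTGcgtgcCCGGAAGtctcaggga
Sec13, chr6:113740662-113740861, minus strand: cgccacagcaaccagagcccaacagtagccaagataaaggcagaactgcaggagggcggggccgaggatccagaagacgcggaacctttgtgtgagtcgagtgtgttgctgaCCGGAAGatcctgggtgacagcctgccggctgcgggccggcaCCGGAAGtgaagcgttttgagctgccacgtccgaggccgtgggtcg
Sec31a, chr5:100416215-100416414, minus strand: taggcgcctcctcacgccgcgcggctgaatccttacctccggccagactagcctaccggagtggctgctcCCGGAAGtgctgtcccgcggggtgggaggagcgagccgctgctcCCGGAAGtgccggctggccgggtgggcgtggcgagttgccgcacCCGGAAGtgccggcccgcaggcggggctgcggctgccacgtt
In Sec31a the motif began 110, 66 and 22 bases before the start site, and in Sec13 it began 68 and 26 bases before it. A copy was in the 300-base windows (250 bases before to 50 after the start) of 6 of the 10 genes, which were Sar1a, Sar1b, Sec23a, Sec24c, Sec13 and Sec31a. Of 9917 tested genes with a window, 20.2% held it.

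The promoters of Sec23a and Sec24d are shown next over the same span. They are 2 of the 7 COPII genes that had less RNA with shArf1-2 than with shArf1-1. Capitals mark TGACGTGG, the letters of the unfolded protein response element (UPRE), and also an ETS motif on the opposite strand in Sec23a and a CCAAT box on the opposite strand in Sec24d.
Sec23a, chr12:59011998-59012197, minus strand: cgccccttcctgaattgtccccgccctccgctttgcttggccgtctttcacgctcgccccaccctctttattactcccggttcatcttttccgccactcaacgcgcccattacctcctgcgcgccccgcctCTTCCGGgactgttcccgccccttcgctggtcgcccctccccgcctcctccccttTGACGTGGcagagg
Sec24d, chr3:123267316-123267515, plus strand: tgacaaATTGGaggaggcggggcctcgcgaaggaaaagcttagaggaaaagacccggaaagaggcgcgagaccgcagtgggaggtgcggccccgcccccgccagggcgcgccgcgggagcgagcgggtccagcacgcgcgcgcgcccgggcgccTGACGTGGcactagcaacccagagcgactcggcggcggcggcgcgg
TGACGTGG was in 2 of the 10 genes, these 2, and in 0.978% of tested genes with a window. In Sec23a it began 6 bases after the start site. The windows of the other genes lower with shArf1-2, Sar1a, Sar1b, Sec24a, Sec13 and Sec31a, did not hold it. The E-box was in 1 of the 10, Sar1a, and in 11.7% of tested genes. The CCAAT box was in 3, Sar1b, Sec23b and Sec24d, and in 43.3%. GGGCGG was in 7 and in 69.3%. The cyclic AMP response element TGACGTCA was in 0 of the 10 and in 3.69%, and the ER stress response element, CCAAT and CCACG with 9 bases between them, was in 0 and in 0.212%. Sec23b and Sec31a had 2 windows each, and all are counted. These are matches of letters and not shown sites.

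Sec24a and Sar1b are neighbours that start head to head. In the GENCODE annotation of GRCm38, Sec24a (minus strand) starts at 51763634 and Sar1b (plus strand) at 51763687 of chromosome 11, with 52 bases between them. Those bases are in capitals in the plus strand stretch chr11:51763605-51763712.
Sec24a-Sar1b: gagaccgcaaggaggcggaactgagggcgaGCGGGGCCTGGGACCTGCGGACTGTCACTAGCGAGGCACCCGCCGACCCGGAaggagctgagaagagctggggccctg
RefSeq, from which the windows above come, sets the start of Sec24a in another place inside the gene and that of Sar1b among the 52 bases. The Sec24a window, chr11:51756785-51757084, does not cover this stretch. The ETS motif across the end of the capitals is therefore counted for Sar1b and not for Sec24a.

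The other genes lie apart from each other. By GENCODE on GRCm38, Sar1a (ENSMUSG00000020088) spans chr10:61680299-61693297 and Sar1b (ENSMUSG00000020386) chr11:51763687-51791925, both on the plus strand. Sec23a (ENSMUSG00000020986) spans chr12:58958383-59012017 on the minus strand, and Sec23b (ENSMUSG00000027429) chr2:144556229-144590749 on the plus strand. Sec24a (ENSMUSG00000036391) is at chr11:51692264-51763634 and Sec24b (ENSMUSG00000001052) at chr3:129982759-130061553, both on the minus strand. Sec24c (ENSMUSG00000039367) is at chr14:20674308-20694852 and Sec24d (ENSMUSG00000039234) at chr3:123267455-123365641, both on the plus strand. Sec13 (ENSMUSG00000030298) at chr6:113728062-113740743 and Sec31a (ENSMUSG00000035325) at chr5:100361649-100416234 are on the minus strand. None of the 100-base windows of their transcripts occurred in a transcript of another gene, so a fragment of that length would not be shared between the paralogs. Exons of Sec23a overlapped those of an antisense gene, Gm17529, over 431 bases (8.90% of its exon bases), and those of Sec24c overlapped 6230400D17Rik over 214 bases (3.40%). Whether counting used strand is not given in the sources used here, so reads of these 2 pairs may not be told apart.

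The libraries held 11182479 to 15594615 counts, and no pair was identical. Arf1 was at 316 to 328 FPKM (reads per length of the gene, scaled to the library's total) in the shlucif libraries, 127 to 130 FPKM with shArf1-1 and 157 to 171 FPKM with shArf1-2, a log2 fold change over the 6 libraries of -1.21 (SE 0.09, adjusted p = 6.05e-08, quasi-likelihood test of edgeR). Markers of another cell type moved with the same comparison. All 18 tested genes of a list of 20 macrophage or microglia markers were lower in the Arf1-deficient libraries. There 14 of the 20, Csf1r, Ptprc, Tyrobp, Itgam and Aif1 among them, had at most 3 counts in every library, and 7 were at 0 in all 6. Their summed level was 1217 to 1407 FPKM in shlucif libraries, 0.243% to 0.283% of the counts, and 1.07 to 1.46 FPKM in Arf1-deficient ones. Of 16 neuroblast markers, 13 were tested, 10 rose and 1, Map2, fell in Arf1-deficient libraries, with sums of 897 to 914 FPKM in shlucif and 1279 to 1452 FPKM in Arf1-deficient libraries. Nefl and Nefm were at or under 3 counts throughout. The part of these shifts in the COPII values against shlucif was not tested. Of 5 astrocyte, 5 oligodendrocyte and 5 fibroblast markers, 2, 2 and 3 were tested, of which 2, 1 and 1 were lower and 0 higher. Of the 18 macrophage or microglia markers 0 passed the edgeR test between shArf1-2 and shArf1-1 (4 without adjustment, 0 with DESeq2 or limma). With at most 3 counts for 14 of the 20 in all 6 Arf1-deficient libraries, that test could hardly call a difference, and no conclusion is drawn from it. The contrast sets the hairpins against each other, but the shlucif libraries entered its filter, scaling and shared estimate of spread.

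In control cells the COPII genes covered a wide range of levels per gene length. Sar1b was highest at 58.1 ± 2.99 FPKM (SD, n = 3), above 93.7% of tested genes, and Sec24a was lowest at 4.95 ± 0.779 FPKM (SD, n = 3), above 41.6% of them. Between them, from high to low, came Sec13 at 38.4 FPKM, Sar1a at 33.2, Sec23a at 26.4, Sec24c at 23.2, Sec31a at 21, Sec24b at 20.5, Sec23b at 16.5 and Sec24d at 11.4 FPKM. Sec31a and Sec24b were the only neighbours in this order whose 3 libraries overlapped. With both hairpins Sec31a stood above all Sec23 and Sec24 genes. With shArf1-2 Sec23a came after Sec24c and overlapped Sec24b.

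In Arf1-deficient cells 3 COPII genes were higher, Sar1a, Sec31a and Sec13, by about the same amount, and 0 were lower (0 also at an unadjusted p under 0.05, and with DESeq2 or limma). Over all tested genes 31.6% were higher and 32.9% were lower in this comparison. The median log2 fold change of the 10 genes was 0.03, and that of all genes 0.0033. The 7 others ranged from -0.17 (Sec23a) to 0.19 (Sar1b) on the log2 scale. In RNA from whole cultures, fewer cells of a type and less RNA per cell cannot be told apart. With shArf1-1 alone, 5 of the 10 were higher (all genes 33.1%) and 1 was lower (34.4%), with a median of 0.16. With shArf1-2 alone, 3 were higher (30.9%) and 3 lower (32.6%), with a median of -0.03. The hairpin comparisons share the shlucif libraries. Directly compared, 7 of the 10 genes were lower with shArf1-2 than with shArf1-1, where 7.46% of all genes were, and 0 were higher, where 6.98% were (edgeR, again 0 without adjustment and with DESeq2 or limma). The median difference of the 10 was -0.32 and that of all genes 0.

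**Figure D1:**
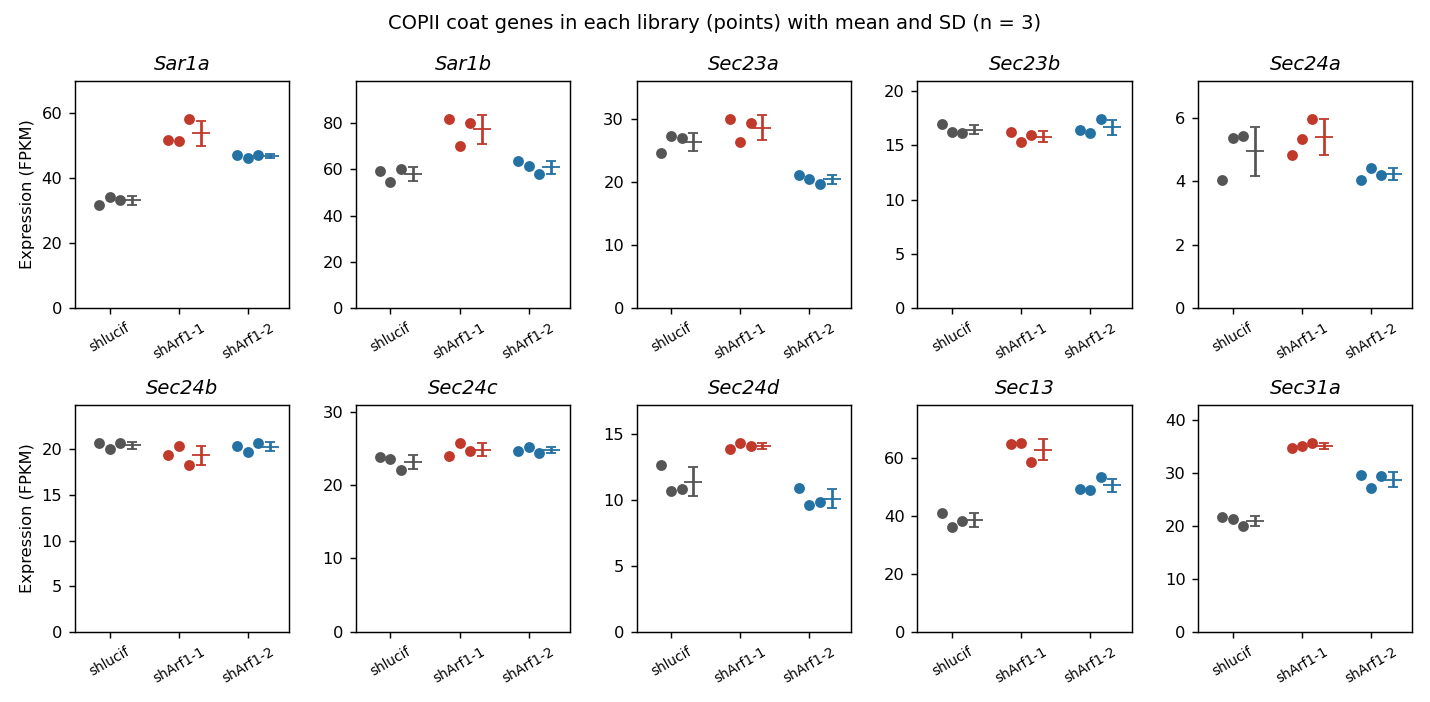
Level of each COPII gene in FPKM (vertical axes, each from 0) in each library (points, left to right replicates 1 to 3) with shlucif (grey), shArf1-1 (red) and shArf1-2 (blue), with the mean and SD of 3 libraries beside them. Sar1a, Sec13 and Sec31a stood above shlucif in all 6 Arf1-deficient libraries. So did Sec24c, which was not past the threshold, by a narrow gap (lowest 24.0 against highest 23.8 FPKM). This gap was in FPKM only, and with the scaling used for the edgeR tests the Sec24c libraries overlapped those of shlucif. Sec23a was lowest in the 3 shArf1-2 libraries.

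Sar1a and Sar1b encode the GTPase that starts assembly. Sar1a was at 31.8, 34.3 and 33.3 FPKM in the 3 shlucif libraries, at 51.8, 51.4 and 58.3 FPKM with shArf1-1 and at 47.0, 46.2 and 47.2 FPKM with shArf1-2. No libraries of the 3 groups overlapped, and shArf1-1 was highest. Both hairpins together gave a log2 fold change of 0.54 (SE 0.07, adjusted p = 2.11e-06, edgeR), 1.45-fold. It was 0.65 (SE 0.06) with shArf1-1 and 0.43 (SE 0.06) with shArf1-2. The difference between the hairpins was -0.22 (SE 0.06, adjusted p = 0.00598), and it became -0.16 with an adjusted p of 0.0608 without shArf1-1 replicate 3, the highest library.

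Sar1b was at 59.4, 54.7 and 60.3 FPKM with shlucif, 81.9, 70.3 and 80.2 FPKM with shArf1-1 and 63.4, 61.6 and 57.9 FPKM with shArf1-2. The shArf1-1 libraries lay above all others, and those of shArf1-2 and shlucif overlapped. The log2 fold change was 0.36 (SE 0.07, adjusted p = 2.15e-05) with shArf1-1 and -0.0034 (95% interval -0.14 to 0.13) with shArf1-2. The hairpins differed by -0.36 (SE 0.07, adjusted p = 0.000282). Over the 6 libraries the change of 0.19 (SE 0.11) did not pass (adjusted p = 0.132), although it did with library size scaling at 0.25 (adjusted p = 0.0401), with a gene length correction at 0.23 (adjusted p = 0.0385) without shArf1-2 replicate 3 at 0.24 (adjusted p = 0.0410) and with the average of the hairpin contrasts from the fit of 3 groups at 0.18 (adjusted p = 0.00895). Sar1a made up 36.4% ± 1.95 (SD, n = 3) of the summed Sar1 level per length with shlucif, 41.0% ± 1.96 with shArf1-1 and 43.4% ± 1.26 with shArf1-2.

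Sec23a and Sec23b encode the subunit that activates GTP hydrolysis by Sar1. Sec23a was at 24.7, 27.3 and 27.1 FPKM with shlucif and at 30.1, 26.4 and 29.5 FPKM with shArf1-1. With shArf1-2 it was at 21.2, 20.5 and 19.7 FPKM, under every other library. The log2 fold change was 0.07 (SE 0.06, adjusted p = 0.332) with shArf1-1 and -0.44 (SE 0.06, adjusted p = 1.45e-07) with shArf1-2. The difference of -0.51 (SE 0.06, adjusted p = 4.49e-07) was the largest among the 10 genes. Over the 6 libraries Sec23a had a log2 fold change of -0.17 (SE 0.15, adjusted p = 0.367), while the average of the hairpin contrasts was -0.19 with an adjusted p of 0.00225.

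Its paralog Sec23b was at 16.9, 16.3 and 16.1 FPKM with shlucif, 16.3, 15.3 and 15.9 FPKM with shArf1-1 and 16.5, 16.1 and 17.4 FPKM with shArf1-2. In FPKM the 3 groups overlapped. With the scaling used for the edgeR tests, the shArf1-1 libraries lay under those of shlucif, although the change did not pass (adjusted p = 0.108, edgeR). The log2 fold change of Sec23b was -0.08 over the 6 libraries (95% interval -0.19 to 0.03, adjusted p = 0.217), -0.11 with shArf1-1 and -0.05 with shArf1-2. The hairpins differed by 0.06 (95% interval -0.06 to 0.18). A correction for GC content, chosen after seeing the data, turned the 6-library value to -0.21 with an adjusted p of 0.00591. Sec23a accounted for 61.5% ± 1.96 (SD, n = 3) of the summed Sec23 level with shlucif, 64.4% ± 0.925 with shArf1-1 and 55.1% ± 1.80 with shArf1-2.

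The 4 Sec24 genes encode the cargo-binding subunit, and each paralog prefers other cargo. Sec24a was at 4.05, 5.37 and 5.43 FPKM with shlucif, 4.84, 5.35 and 5.97 FPKM with shArf1-1 and 4.04, 4.44 and 4.21 FPKM with shArf1-2. The shlucif libraries were spread over most of the range, with replicate 1 among those of shArf1-2. The log2 fold change was 0.07 (SE 0.09, adjusted p = 0.485) with shArf1-1 and -0.30 (SE 0.09, adjusted p = 0.00627) with shArf1-2. The latter was -0.22 with an adjusted p of 0.0567 without shlucif replicate 3. The hairpins differed by -0.37 (SE 0.09, adjusted p = 0.00630), and their libraries did not overlap.

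Sec24d went in opposite directions with the hairpins. It was at 12.7, 10.7 and 10.8 FPKM with shlucif, 13.9, 14.4 and 14.1 FPKM with shArf1-1 and 10.9, 9.58 and 9.80 FPKM with shArf1-2. The shArf1-1 libraries stood above all others, while in FPKM those of shArf1-2 overlapped shlucif. The log2 fold change was 0.25 (SE 0.07, adjusted p = 0.00242) with shArf1-1 and -0.24 (SE 0.07, adjusted p = 0.00425) with shArf1-2, the latter -0.15 with an adjusted p of 0.0774 without shlucif replicate 1. The difference of -0.50 (SE 0.07, adjusted p = 8.03e-06) left 0.02 (SE 0.15, adjusted p = 0.901) over the 6 libraries together.

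Sec24b and Sec24c differed little between the groups. Sec24b was at 20.7, 20.02 and 20.7 FPKM with shlucif, 19.4, 20.3 and 18.3 FPKM with shArf1-1 and 20.4, 19.7 and 20.8 FPKM with shArf1-2. Its log2 fold change of -0.14 with shArf1-1 passed narrowly (SE 0.06, adjusted p = 0.0405). That call was lost without either of shlucif replicates 1 and 3, shArf1-1 replicates 1 and 3 or shArf1-2 replicates 1 and 3, at values of -0.14 to -0.09 and adjusted p-values of 0.0509 to 0.196. With shArf1-2 it was -0.08 (adjusted p = 0.219). Sec24c was at 23.8, 23.6 and 22.1 FPKM with shlucif, 24.0, 25.8 and 24.6 FPKM with shArf1-1 and 24.7, 25.3 and 24.4 FPKM with shArf1-2. Its log2 fold change over the 6 libraries was 0.04 (95% interval -0.06 to 0.14, adjusted p = 0.552), and the hairpins differed by -0.02 (95% interval -0.13 to 0.09). Sec24c took 38.6% ± 1.10 (SD, n = 3) of the summed Sec24 level with shlucif, 39.0% ± 0.294 with shArf1-1 and 41.7% ± 0.937 with shArf1-2. The share of Sec24d was 19.0% ± 1.52 with shlucif, 22.2% ± 0.316 with shArf1-1 and 17.0% ± 1.04 with shArf1-2.

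Sec13 and Sec31a form the outer cage, and Sec13 is also a subunit of the nuclear pore. Sec13 was at 40.9, 36.2 and 38.2 FPKM with shlucif, 64.8, 65.2 and 58.5 FPKM with shArf1-1 and 49.1, 49.0 and 53.2 FPKM with shArf1-2. The 3 groups did not overlap. Over the 6 Arf1-deficient libraries it changed by 0.50 on the log2 scale (SE 0.10, adjusted p = 0.000726), 1.41-fold, with 0.65 (SE 0.06) for shArf1-1 and 0.32 (SE 0.06) for shArf1-2. The hairpins differed by -0.33 (SE 0.06, adjusted p = 0.000186).

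Sec31a was at 21.7, 21.3 and 19.97 FPKM with shlucif, 34.7, 35.1 and 35.8 FPKM with shArf1-1 and 29.6, 27.2 and 29.5 FPKM with shArf1-2. Here too each group stood apart, with shArf1-1 highest. The log2 fold change was 0.54 (SE 0.09, adjusted p = 5.48e-05) over the 6 libraries, 1.46-fold, 0.69 (SE 0.05) with shArf1-1 and 0.38 (SE 0.05) with shArf1-2. The difference between the hairpins was -0.31 (SE 0.05, adjusted p = 0.000102). Arf1 itself was 0.34 higher with shArf1-2 than with shArf1-1 on the log2 scale (SE 0.05, adjusted p = 1.16e-05).

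**Figure D2:**
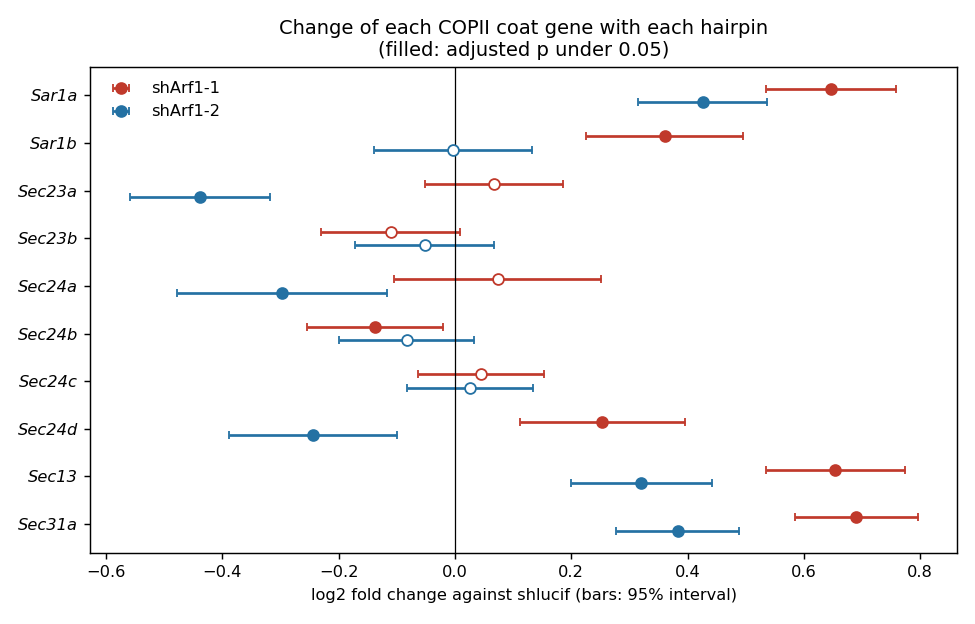
Log2 fold change of each COPII gene against shlucif (horizontal axis) with shArf1-1 (red) and shArf1-2 (blue), from the edgeR fit of 3 groups of 3 libraries, with bars for the 95% interval and filled points for an adjusted p under 0.05. The shArf1-1 value lies to the right of the shArf1-2 value for 8 genes and to its left for Sec23b and Sec24b.

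The levels summed over paralogs give the amount of RNA for each coat position per gene length. The Sar1 sum was 91.3 ± 2.27 FPKM (SD, n = 3) with shlucif, 131 ± 8.69 FPKM with shArf1-1 and 108 ± 2.69 FPKM with shArf1-2. The Sec24 sum was 60.0 ± 1.07, 63.6 ± 1.95 and 59.4 ± 0.546 FPKM in the same order, and the 9 libraries lay between 59.0 and 65.8 FPKM. The Sec23 sum was 42.8 ± 1.06 FPKM with shlucif, 44.5 ± 2.46 FPKM with shArf1-1 and 37.1 ± 0.520 FPKM with shArf1-2. These sums were not tested.

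Whether partners kept their balance was asked from 5 ratios of FPKM within a library, which do not depend on library scaling, by a two-sided exact permutation test over the 84 ways to choose 3 of 9 libraries. Sec13/Sec31a, the pair of the cage, was 1.83 ± 0.116 (SD, n = 3) with shlucif, 1.79 ± 0.133 with shArf1-1 and 1.75 ± 0.0826 with shArf1-2. The log2 ratio differed by -0.05 between Arf1-deficient and shlucif libraries (exact permutation p = 0.429, adjusted p = 0.952). Sar1a/Sar1b was 0.572 ± 0.0490 with shlucif, 0.697 ± 0.0553 with shArf1-1 and 0.769 ± 0.0399 with shArf1-2. All 6 Arf1-deficient libraries (0.633 to 0.815) lay above the 3 shlucif libraries (0.535 to 0.628), a log2 difference of 0.36 at the smallest p the design allows, 0.0238, which was 0.119 when adjusted over the 5 ratios (exact permutation test). A ratio that alone had the smallest p could not pass 0.05 after this adjustment, whatever its size. Sec23a/Sec23b was 1.60 ± 0.129 with shlucif, 1.81 ± 0.0719 with shArf1-1 and 1.23 ± 0.0873 with shArf1-2, on both sides of the control, with an exact permutation p of 0.571 over the 6 libraries. Sec24c/Sec24d was 2.04 ± 0.168, 1.76 ± 0.0342 and 2.46 ± 0.189 in that order (exact permutation p = 0.905), and Sec24a/Sec24b was 0.242 ± 0.0400, 0.280 ± 0.0414 and 0.209 ± 0.0143 (exact permutation p = 1). The test pools the hairpins, so it does not compare them.

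**Figure D3:**
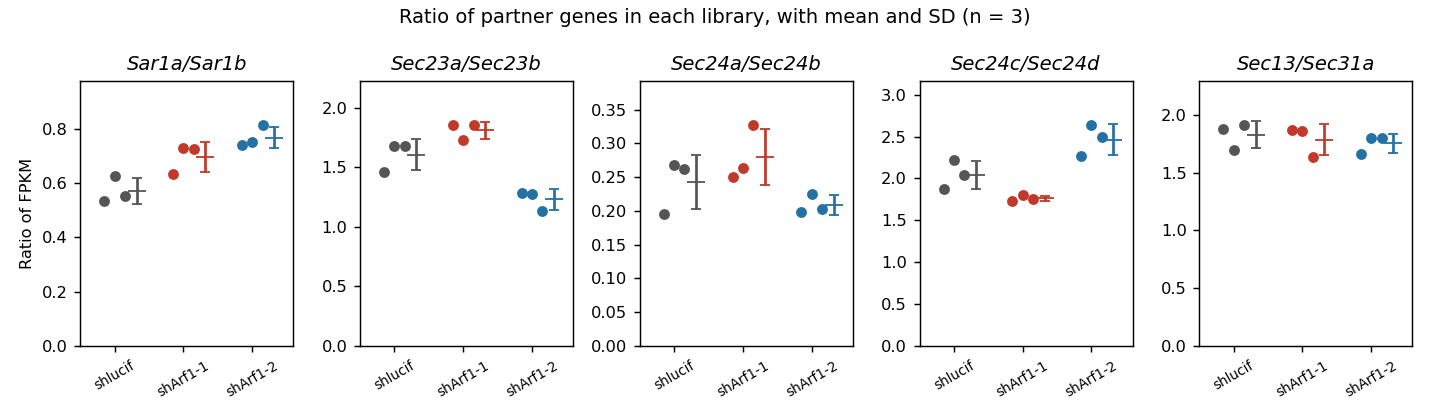
Ratio of the FPKM of 2 COPII genes (vertical axes, each from 0) in each library (points) with shlucif (grey), shArf1-1 (red) and shArf1-2 (blue), with the mean and SD of 3 libraries. Sar1a/Sar1b is higher in the 6 Arf1-deficient libraries than in the 3 shlucif libraries, while Sec23a/Sec23b and Sec24c/Sec24d lie on either side of shlucif with the 2 hairpins.

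Genes that serve COPII at ER exit sites were read from a list of 11, of which 6 rose and 2 fell in Arf1-deficient cells, beside the 31.6% and 32.9% of all genes, with a median log2 fold change of 0.28. The largest rises were those of Mia2, 0.60 (SE 0.07), a receptor that helps load large cargo, and Sec23ip, 0.57 (SE 0.06), which binds Sec23. Pef1, part of the calcium-dependent adaptor that marks Sec31a for ubiquitin, fell by 0.44 on the log2 scale (SE 0.07), and its partner Pdcd6 fell by 0.27. On the same list Cul3 rose by 0.31 (adjusted p = 0.000617, edgeR), and Klhl12 was at -0.16 (adjusted p = 0.0876). Preb, the exchange factor that loads Sar1 with GTP, rose by 0.41 (adjusted p = 1.04e-05). Sec16a, the scaffold of exit sites, had 0.06 (adjusted p = 0.369). Between the hairpins 1 of the 11 differed, Mia3 at -0.19 (adjusted p = 0.00902), beside the 7.46% of all genes that were lower and the 6.98% that were higher.

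Among 18 tested cargo receptors of ER export, of 19 listed, 8 were higher and 4 lower, beside 31.6% and 32.9% of all genes, with a median of 0.14. Tmed1, a member of the p24 family, was at 11.99, 10.9 and 11.01 FPKM with shlucif and 19.0 to 22.1 FPKM in the Arf1-deficient libraries, a log2 fold change of 0.79 (SE 0.09). Lman2, a lectin, rose by 0.58 (SE 0.08) and Ergic1 by 0.39 (SE 0.07). The 4 that fell were Ergic3 (-0.30), Lman2l (-0.27), Mcfd2 (-0.19) and Lman1 (-0.18), the latter pair being the receptor of clotting factors. Of 11 genes for tethering and fusion at the Golgi, 5 were higher and 1, Rab1a (-0.17), was lower, beside the same shares of all genes, with a median of 0.19. Scfd1 (0.62), Gosr2 (0.52) and Uso1 (0.37) rose most, followed by Ykt6 (0.35) and Rab1b (0.23).

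The COPI coat, which Arf1 recruits, is the nearest counterpart. In Arf1-deficient cells 3 of its 9 genes were higher, Copg1 at 0.46 (SE 0.07), Arcn1 at 0.41 (SE 0.07) and Cope at 0.20 (adjusted p = 0.0463), and 1 was lower, Copg2 at -0.23 (SE 0.06), beside 31.6% higher and 32.9% lower over all genes, with a median of 0.11. Between the hairpins 6 of the 9 COPI genes were lower with shArf1-2 than with shArf1-1 and 0 were higher (0 also without adjustment), with a median of -0.23, beside 7 of 10 and -0.32 for COPII and 7.46% lower and 6.98% higher over all genes. Copb2 differed most, at -0.41 (adjusted p = 1.12e-06). No test was made between the coats. Of 5 transcription factors known to act on secretory genes, Xbp1 rose by 0.37 (SE 0.08), and Creb3l2, a factor known to raise Sec23a transcription, fell by 0.80 on the log2 scale (SE 0.06), as did Atf6 by 0.28 (SE 0.05). Creb3l2 was at -0.87 with shArf1-1 and -0.74 with shArf1-2, where Sec23a was at 0.07 and -0.44. A link between these 2 genes was not tested. Of the 5, 0 passed the edgeR test between the hairpins (2 without adjustment, 0 with DESeq2, 1 with limma), with values from -0.30 to 0.26.

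**Figure D4:**
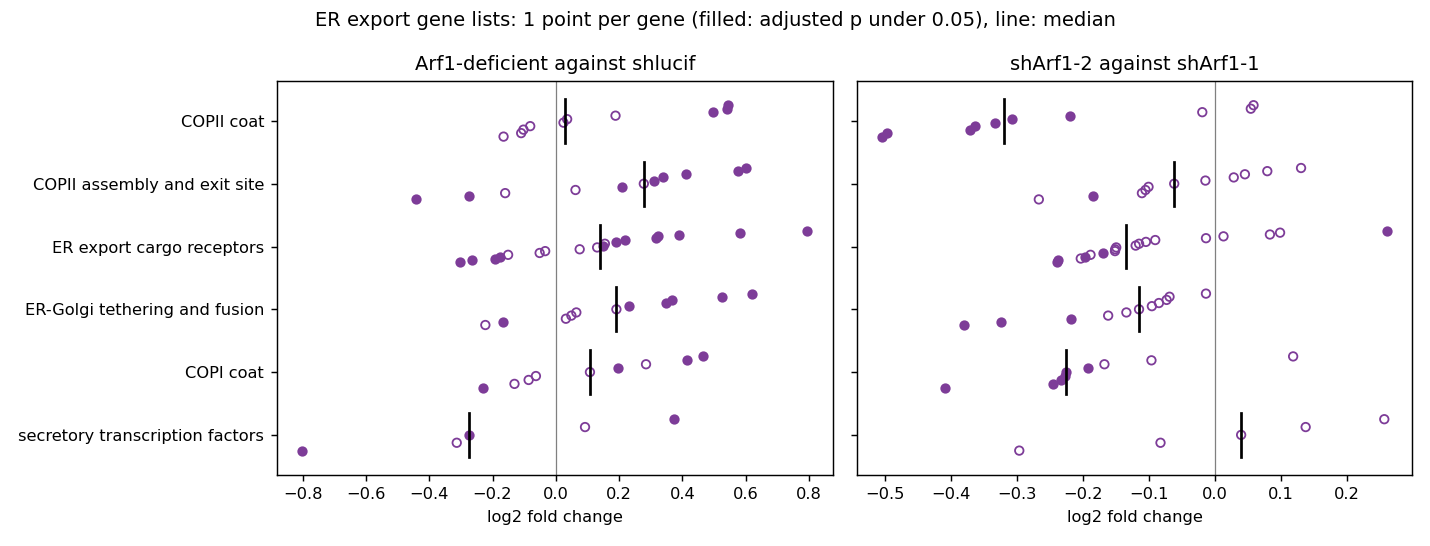
Log2 fold change (horizontal axes) of each tested gene (points, filled at an adjusted p under 0.05) of the COPII coat and of 5 lists of related genes, in Arf1-deficient against shlucif libraries (left) and with shArf1-2 against shArf1-1 (right), with a line at each list's median. At right the medians of the coats, -0.32 for COPII and -0.23 for COPI, lie left of those of the other lists.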

How the data were processed

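The members and gene lists were chosen with earlier results of these data known. Poly(A) RNA of N2a cells was sequenced, and the authors deposited 1 table that holds, per gene and library, raw read counts and FPKM. The deposited FPKM could be rebuilt for 100% of values, within a relative 0.0001, by dividing the count by the gene's length and the total of its library. The submitters' processing notes name mm10, and the aligner, counter, annotation and strand setting are not given in the sources used here. The table's own coordinates were not used, and positions are those of GENCODE M21 by gene identifier. Columns shArf2_1 to shArf2_3 were taken as shArf1-2 by their names. After 8 line fragments were dropped, 21899 genes remained.

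Counts were scaled by TMM and tested with edgeR 4.0.16 in R 4.3.3 (filterByExpr, robust glmQLFit, glmQLFTest), in a fit of 2 groups for the 6 Arf1-deficient against 3 shlucif libraries and in a fit of 3 groups for each hairpin and their difference. P-values were adjusted by Benjamini-Hochberg over the 12448 genes tested, and a gene was called under 0.05. The SE is the absolute log2 fold change divided by the square root of the test's F value. Intervals are the estimate ± 1.96 SE, a normal multiplier, and are narrower than the test implies. For Sec24b over the 6 libraries the interval was -0.22 to -0.00072, beside an unadjusted edgeR p of 0.0632. Totals of 11182479 to 15594615 counts set the precision. Ratios of partners were tested over libraries by exact permutation. Named were Arf1, the 10 members, up to 3 genes of each context list with the largest change past the threshold, and members of counts of 5 or fewer. Preb, Sec16a, Cul3, Klhl12 and Copb2 were named after their values were seen. Alternatives were DESeq2 1.42.0, library size and upper quartile scaling, other filters, limma 3.58.1 on FPKM in log2 with 1 or 0.1 added, a block for the replicate number, gene length and GC content corrections (the latter added after the data were seen), the mean of both hairpin contrasts, fits without the libraries of the third group, and leaving out each library. The scripts were tested on simulated data.

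Same-numbered libraries of different groups did not deviate together (9 pairs, mean r 0.0091, from -0.102 to 0.128), so the replicate numbers were not used as pairs.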

Additional observations from a re-analysis of the deposited data

Results flagged for a closer look

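The change with shArf1-2 differed from that with shArf1-1, by the edgeR test of the difference itself, for 7 COPII genes. On the log2 scale the difference (shArf1-2 minus shArf1-1) was -0.51 for Sec23a, -0.50 for Sec24d, -0.37 for Sec24a, -0.36 for Sar1b, -0.33 for Sec13, -0.31 for Sec31a and -0.22 for Sar1a. For Arf1 it was 0.34. Among the named genes of the related lists it was -0.38 for Gosr2, -0.24 for Lman2, -0.23 for Copg1, -0.22 for Scfd1, -0.20 for Ergic1 and -0.19 for Arcn1.

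In log2 CPM over the 6 Arf1-deficient libraries, 1 library stood apart for Sec24c (gap over range 0.658) and 1 for Atf6 (0.639), above Dixon's critical value of 0.625. Chance flags about 1 in 20 such groups, and 31 were examined.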

How the results depend on the processing

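Sar1a, Sec13 and Sec31a stayed higher and past the threshold against shlucif, in Arf1-deficient cells and with each hairpin, under every alternative and without any 1 library, with log2 fold changes in Arf1-deficient cells of 0.48 to 0.60, 0.45 to 0.56 and 0.50 to 0.61. The replicate block left the counts of COPII genes at 3 higher and 0 lower in Arf1-deficient cells, 5 and 1 with shArf1-1, 3 and 3 with shArf1-2 and 0 and 7 between the hairpins, as without it. The genes near the threshold depended on the processing, and the cause was not tested. The count lower in Arf1-deficient cells became 1 with the average of the hairpin contrasts (Sec23a) and with the GC content correction (Sec23b). With shArf1-1 the 1 lower gene, Sec24b, was lost (0 lower) with library size scaling, no filter on low counts, both limma fits, a fit of only the 6 libraries, and some left-out libraries (0 to 1), and the GC content correction gave 2. With shArf1-2 the 3 lower genes became 1 with either limma fit (Sec23a alone), as Sec24a and Sec24d had adjusted p-values of 0.131 and 0.0698 on log2(FPKM + 1), and Sec24a had 0.0514 with library size scaling. The GC content correction gave 4 with shArf1-2, as Sec23b was then lower too (-0.17, adjusted p = 0.00982, edgeR). Between the hairpins Sec24a was -0.29 with an adjusted p of 0.0814 on log2(FPKM + 1). Cargo receptors lower, 4 as reported, numbered 2 with library size scaling and 1 with either limma fit. Tethering and fusion genes lower, 1 as reported, were 0 with those 3 and 0 to 1 without a library (0 without shlucif replicate 3). COPI genes higher, 3 as reported, were 5 with those 3 and with the average of the hairpin contrasts, and 2 with at least 10 counts in every library, with the replicate block, and without shlucif replicate 2 or 3 or any 1 shArf1-1 replicate, and 4 with upper quartile scaling and without shArf1-2 replicate 1 or 2. COPI genes lower, 1 as reported, were 2 with the GC content correction. Library size scaling moved the median of all genes by 0.07 at most.

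Small values that were not past the threshold changed sign. Without 1 library, Sec24d in Arf1-deficient cells ranged from -0.036 to 0.11, Sec24a with shArf1-1 from -0.048 to 0.15, Sar1b with shArf1-2 from -0.054 to 0.028, Sec24c with shArf1-2 from -0.0055 to 0.050 and Sec24c between the hairpins from -0.040 to 0.012. With shArf1-1, Sec23a was -0.052 with the GC content correction, and Sec24a was -0.015 with the gene length correction, -0.014 with the replicate block added to it and -0.025 with the GC content correction. With shArf1-2, Sar1b was 0.068 with library size scaling, 0.068 and 0.069 with limma on log2(FPKM + 1) and log2(FPKM + 0.1), 0.0010 with no filter, 0.059 with the gene length correction with or without the replicate block and 0.0014 with only the 6 libraries, and Sec23b was 0.019, 0.018 and 0.018 with library size scaling and those limma fits. Without 1 library the log2 difference in Sec24a/Sec24b ranged from -0.14 to 0.086 and in Sec24c/Sec24d from -0.041 to 0.087. Under the replicate block the exact permutation test of Sar1a/Sar1b had 27 arrangements, too few for any p under 0.05, and an adjusted p of 0.370.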
